A study of Mus musculus and Homo sapiens with 16 samples.

Results

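Open chromatin and histone H3 acetylation at lysine 27 (H3K27ac) were compared across the genome of E17.5 mouse skin epithelium, and gene starts carrying both, either or neither were read against RNA levels. The peaks were the 41905 ATAC-seq peaks and 18155 H3K27ac ChIP-seq peaks of that stage, 60060 of the 66532 mouse peaks in the series, whose other list holds peaks of the transcription factor KLF5. The series concerns KLF5 in the skin. Of its 16 samples, those used here are 1 ATAC sample, 1 H3K27ac sample, 1 KLF5 ChIP-seq sample for its peaks, 3 RNA libraries labelled Klf5-/-, used in the comparison of genotypes alone, and 3 RNA libraries of Klf5+/- genotype, called Het, which give all other RNA levels. The labels give C57BL/6 as the strain and E17.5, a late embryonic stage, for every sample used, and the cells were peeled epidermis sorted as DAPI-, CD45- and integrin A6+. The H3K27ac and KLF5 samples are labelled wild type. The ATAC sample is labelled wild type too, although its title carries the word Het. No source used here states the promoter or Cre behind the deletion or the number of animals per library.

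A peak of either list overlapped the other when they shared at least 1 base. The 39179 genes of the count files each gave 1 start, the outermost annotated base at the 5′ end. A start was placed by the summits, the points of highest signal within a peak, that lay within 1 kb of it: 9198 starts (23.5%) had summits of both lists, 4988 (12.7%) of ATAC only, 330 (0.842%) of H3K27ac only and 24663 (62.9%) of neither. Neighbouring genes can share a summit, so the 9198 starts with both rested on 7494 ATAC and 7507 H3K27ac summits.

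DNA in eukaryotic nuclei is wrapped around histones, and regulatory DNA is commonly found where this packing is loosened. ATAC-seq reads such places through a transposase that cuts accessible DNA. H3K27ac is placed on histones by acetyltransferases of the CBP and p300 family and marks active promoters and enhancers, while open sites without it include poised promoters, insulators and silent regulatory elements. The epidermis is a layered epithelium in which basal keratinocytes, attached through integrins and making keratins 5 and 14, give rise to suprabasal cells that make keratins 1 and 10 and then the cornified barrier.

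The promoters of 4 genes of high RNA level, each from another of the start groups, are given as examples and not as typical of their groups. They are RefSeq sequences of 300 bases on GRCm38.p6, from 250 bases before to 50 after the annotated start, and CpG dinucleotides are in capitals because their median number differed between the groups. Krtdap, which encodes a small secreted protein of differentiating keratinocytes, had both summits (chr7:30787655-30787954, plus strand). Dmkn, its neighbour, which encodes the secreted epidermal protein dermokine, had an ATAC summit only (chr7:30763506-30763805, plus strand). Cox6b1, which encodes a subunit of mitochondrial cytochrome c oxidase, had an H3K27ac summit only (chr7:30626065-30626364, minus strand). Krt10, which encodes the type I keratin of suprabasal cells, had neither (chr11:99389315-99389614, minus strand).
Krtdap: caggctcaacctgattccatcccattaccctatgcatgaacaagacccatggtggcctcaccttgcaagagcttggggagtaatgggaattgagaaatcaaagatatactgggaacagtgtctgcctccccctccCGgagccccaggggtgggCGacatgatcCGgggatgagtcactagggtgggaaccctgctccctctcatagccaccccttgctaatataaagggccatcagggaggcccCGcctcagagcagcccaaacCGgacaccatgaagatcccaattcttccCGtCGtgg
Dmkn: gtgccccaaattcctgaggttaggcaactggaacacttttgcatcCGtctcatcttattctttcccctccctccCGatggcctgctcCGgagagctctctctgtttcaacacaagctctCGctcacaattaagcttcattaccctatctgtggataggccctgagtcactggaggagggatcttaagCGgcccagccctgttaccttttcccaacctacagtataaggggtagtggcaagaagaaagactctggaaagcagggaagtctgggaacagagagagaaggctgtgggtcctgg
Cox6b1: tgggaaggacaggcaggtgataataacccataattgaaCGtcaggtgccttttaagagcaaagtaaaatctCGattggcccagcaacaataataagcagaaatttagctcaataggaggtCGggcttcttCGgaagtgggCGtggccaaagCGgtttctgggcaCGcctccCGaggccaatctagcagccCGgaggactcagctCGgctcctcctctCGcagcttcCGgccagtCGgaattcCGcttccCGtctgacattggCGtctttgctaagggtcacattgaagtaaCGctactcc
Krt10: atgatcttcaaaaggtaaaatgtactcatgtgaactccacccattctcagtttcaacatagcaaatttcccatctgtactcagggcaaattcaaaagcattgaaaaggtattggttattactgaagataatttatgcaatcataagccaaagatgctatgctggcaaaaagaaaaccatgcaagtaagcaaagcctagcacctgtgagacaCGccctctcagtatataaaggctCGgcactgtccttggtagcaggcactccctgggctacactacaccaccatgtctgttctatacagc
The Cox6b1 window holds 17 CpG dinucleotides, and those of Krtdap, Dmkn and Krt10 hold 7, 5 and 2. The medians of their groups were 10, 23, 15 and 3 in that order, so these examples do not follow the order of the groups. The Krtdap and Dmkn windows contain the AP-1 letters TGANTCA, and the Krtdap and Krt10 windows contain TATAAA, the core of the TATA box.

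Most acetylated regions were open, and most open regions were not acetylated. Of the H3K27ac peaks, 13361 (73.6%, Wilson 95% interval 72.9 to 74.2) overlapped an ATAC peak, and of the ATAC peaks, 12796 (30.5%, 30.1 to 31.0) overlapped an H3K27ac peak. The intervals cover counting error only, since each assay had 1 sample. The ATAC list covered 22439037 bases and the H3K27ac list 10648670, and the bases in both made up 31.8% of the ATAC bases and 67.0% of the H3K27ac bases. Where they overlapped, the marks were nearly superimposed: the median distance from an ATAC summit to the nearest H3K27ac summit was 118 bp, with quartiles of 48 and 219 bp, and 86.6% of those ATAC summits lay inside an H3K27ac peak.

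Overlap was more common near gene starts. Among peaks with a summit within 1 kb of a start, 8019 of 8590 H3K27ac peaks (93.4%) were open and 7633 of 12533 ATAC peaks (60.9%) were acetylated. Farther from starts the numbers were 5342 of 9565 H3K27ac peaks (55.8%) and 5163 of 29372 ATAC peaks (17.6%). Open regions away from starts that carried no H3K27ac peak numbered 24209 and formed the main body of the ATAC list.

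**Figure D1:**
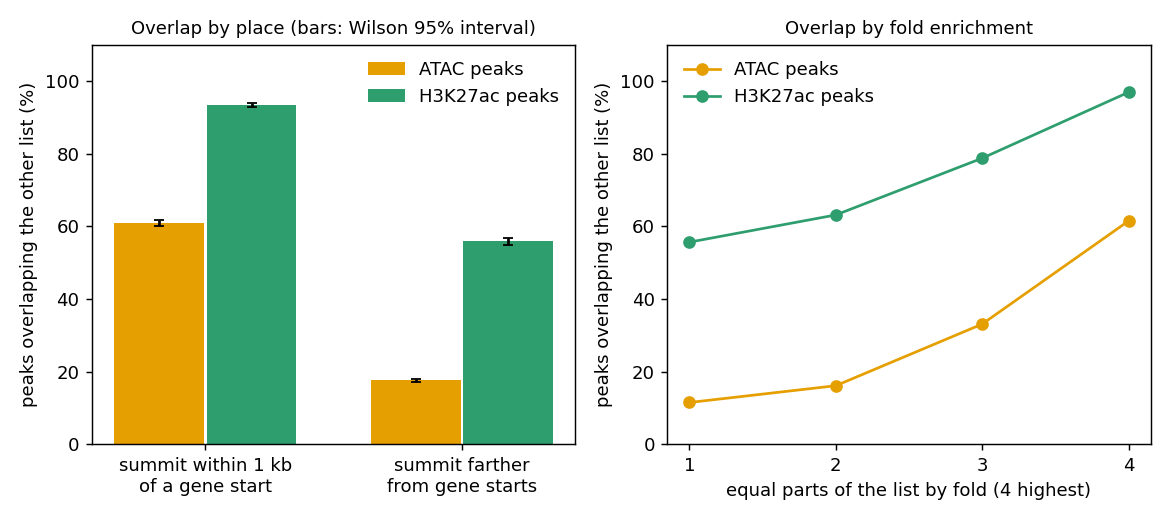
Percentage of peaks that overlap the other list, for ATAC peaks (orange) and H3K27ac peaks (green). Left, peaks with a summit within 1 kb of a gene start and farther away, with Wilson 95% intervals: 60.9% and 17.6% of ATAC peaks, 93.4% and 55.8% of H3K27ac peaks. Right, each list in 4 equal parts by the authors' fold enrichment: overlap was 11.5% in the lowest and 61.5% in the highest part of the ATAC list, and 55.6% and 96.9% in those of the H3K27ac list.

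Peaks in both lists were also taller and wider. The fold enrichment of a peak is the authors' own value and orders peaks within a list. Overlapping ATAC peaks had a median fold of 7.27 and a median width of 743 bp, against 4.98 and 391 bp for ATAC peaks without H3K27ac. Overlapping H3K27ac peaks had a median fold of 3.98 and a median width of 587 bp, against 3.24 and 273 bp for H3K27ac peaks without ATAC. A wider peak shares a base with the other list more readily, and the part of this rule in the width differences was not tested. In 4 equal parts of the ATAC list, from lowest to highest fold, 11.5%, 16.1%, 33.1% and 61.5% of peaks were acetylated. The share with a summit within 1 kb of a start moved along with this, at 16.6%, 18.5%, 30.3% and 54.2% of the same parts, and its part in the result was not tested. A KLF5 peak was present at 34.0% of ATAC peaks with H3K27ac, against 3.80% of those without.

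Of the 20 ATAC peaks of highest fold, 9 overlapped an H3K27ac peak and 19 lay more than 1 kb from any start. The 6 highest that overlapped H3K27ac had folds of 25.3 to 33.8, and all 6 also held a KLF5 peak, against 34.0% of all ATAC peaks with H3K27ac. They were 313 to 593 bp wide, against a median of 743 bp for all ATAC peaks with H3K27ac. No peak was removed here for lying in a region of high signal in any sample. Such regions and regulatory sites therefore cannot be told apart among the extreme peaks. The 6 highest that did not overlap H3K27ac had folds of 30.6 to 33.6, and none of them held a KLF5 peak. The highest of the whole ATAC list, which overlapped H3K27ac, stood at chr6:103649013-103649329, 60468 bp from the start of Gm24784. The H3K27ac peaks of highest fold outside open chromatin included 4 on scaffolds outside the chromosomes among the top 6, with folds of 9.30 to 15.9. Each of these top 6 also held a KLF5 peak, against 6.57% of all H3K27ac peaks without ATAC.

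H3K27ac peaks mostly covered 1 open site. No ATAC peak was found in 4794 H3K27ac peaks, 1 in 13109, 2 in 246 and 3 in 6. Median widths of these groups were 273, 578, 1340 and 1797 bp, and a wider peak has more bases in which to meet an ATAC peak. Those with 3 open sites lay nearest to the starts of Dusp16, Frmd4b, Caprin1, Kif13a, S100a2 and Hivep2. Caprin1, which encodes an RNA-binding protein of stress granules, had 495, 480 and 509 counts scaled to library size (CPM) in the Het libraries. S100a2, which lies in the epidermal differentiation complex, had 0 counts in each.

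RNA levels differed across the start groups, with both marks at the top and neither at the bottom. To compare genes of different size, levels were divided by exon length. The median level of genes with both summits was 8.80, 8.35 and 8.53 CPM per kb of exon in the 3 Het libraries (8.56 ± 0.229, SD, n = 3). Genes with H3K27ac only had medians of 3.40, 2.85 and 2.91 CPM per kb (3.05 ± 0.300), those with ATAC only 0.378, 0.311 and 0.358 CPM per kb (0.349 ± 0.0344), and those with neither 0 in every library. The values of the 4 groups did not overlap across libraries. By these medians, genes with ATAC only stood closer to those with neither, whose median rested at 0, than to those with both. The shares of genes at 1 CPM or more, given next, did not place them closer to neither.

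Of all 39179 genes, 31.3% had 1 CPM or more in each Het library, and this background is the reading point for the groups. The share was 85.6% (7873 genes) at starts with both, 48.0% (2395) with ATAC only, 62.4% (206) with H3K27ac only and 7.22% (1781) with neither. No counts at all were found for 3.79% of genes with both, 17.4% with ATAC only, 17.0% with H3K27ac only and 65.9% with neither. The groups differed in the kind of gene they held. Among genes that RefSeq lists as protein coding, median levels were 42.8 CPM with both, 3.27 with ATAC only, 28.3 with H3K27ac only and 0 with neither.

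**Figure D2:**
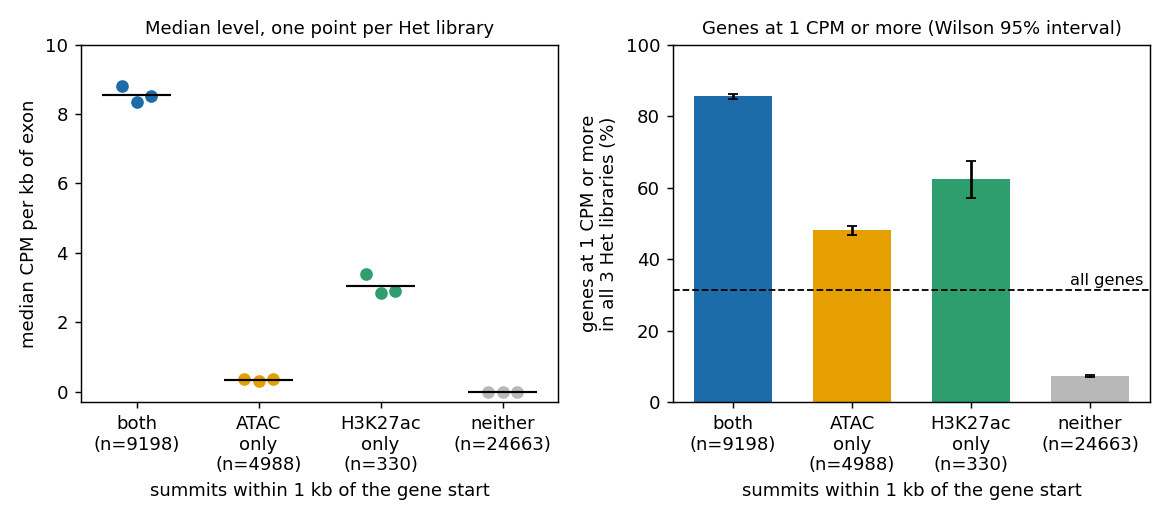
RNA levels of genes by the summits within 1 kb of their start. Left, the median CPM per kb of exon in each Het library (points) and the mean of the 3 (line): about 8.56 with both, 0.349 with ATAC only, 3.05 with H3K27ac only and 0 with neither. Right, the percentage of genes at 1 CPM or more in all 3 Het libraries with Wilson 95% intervals, and the share over all genes (31.3%) as a dashed line.

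The small group with H3K27ac only depended on where the window ended. With a window of 2 kb its median was 0.444 CPM, under the 0.556 CPM of genes with ATAC only, while with 500 bp it was 19.8 CPM against 2.06 CPM. By the median, its order relative to ATAC only therefore holds for windows of 500 bp and 1 kb but turned with 2 kb. The share of genes at 1 CPM or more did not turn with 2 kb, at 46.0% with H3K27ac only and 42.8% with ATAC only. Of the 330 starts, 161 (48.8%) had an ATAC summit within 2 kb, just beyond the window, and the median distance was 2150 bp, with quartiles of 1166 and 10457 bp. The 34 with a mean of 100 CPM or more lay a median of 1207 bp from the nearest ATAC summit. At the edge itself, the 378 genes with the nearest H3K27ac summit at 751 to 1000 bp had a median of 9.27 CPM, and the 234 genes at 1001 to 1250 bp had 1.03 CPM. For ATAC summits the 541 genes just inside had a median of 0.558 CPM and the 429 just outside 0.0893 CPM.

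Read the other way, the share of starts with both summits grew with the RNA level and then levelled off. It was 1.99% of genes with no counts, 7.31% of those up to 0.1 CPM, 13.5% from 0.1 to 1 CPM and 30.8% from 1 to 10 CPM. The share was 72.4% from 10 to 100 CPM, 81.4% from 100 to 1000 CPM and 77.9% of the 95 genes at 1000 CPM or more. Starts with ATAC only were most frequent among genes at 1 to 10 CPM, where they made up 32.9%.

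**Figure D3:**
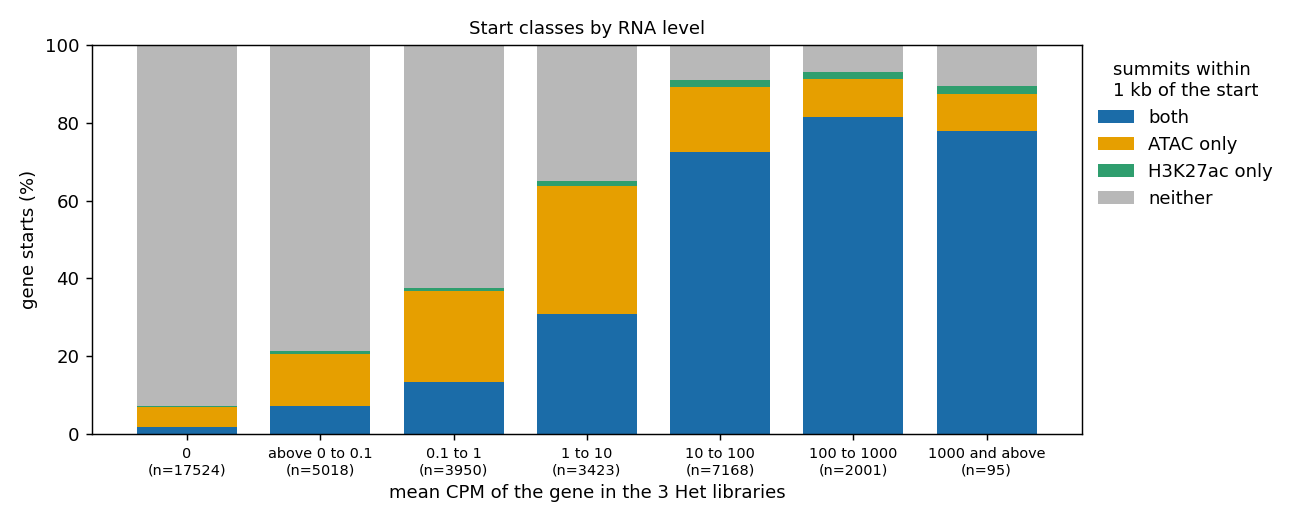
Percentage of gene starts with both, ATAC only, H3K27ac only or neither, by mean CPM of the gene over the 3 Het libraries, from genes with no counts (left) to 1000 CPM and above (right). Starts with both made up 1.99% of genes with no counts and 81.4% of genes at 100 to 1000 CPM, and starts with ATAC only peaked at 32.9% between 1 and 10 CPM.

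Within the 9198 starts with both, RNA level was correlated near 0 with peak height. Across 9197 genes with an exon length, the Spearman correlation of CPM per kb was 0.05 with H3K27ac fold and -0.02 with ATAC fold. It was 0.14 with the width of the H3K27ac peak. These are descriptions across genes that share libraries and can share peaks, so no p is given. In 4 equal parts by H3K27ac width, from narrowest to widest, median levels were 5.98, 8.06, 9.29 and 11.1 CPM per kb.

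ATAC and H3K27ac summits were placed differently around these starts. The nearest ATAC summit lay at a median of 57 bp downstream, with quartiles at 144 bp upstream and 150 bp downstream, and 59.7% were downstream. In steps of 50 bp the ATAC summits had a main peak at 50 to 100 bp downstream (14.8%) and a lower one at 100 to 150 bp upstream (8.39%), with 3.86% in the 50 bp just before the start. The nearest H3K27ac summit lay at a median of 4 bp upstream, with quartiles at 124 bp upstream and 127 bp downstream, and 49.2% were downstream.

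CpG density differed across the groups, with starts that had both at the top. Over 32817 RefSeq promoters of 300 bases, placed in groups by their own start, the median number of CpG dinucleotides was 23 with both (quartiles 16 and 31), 15 with ATAC only (7 and 25), 10 with H3K27ac only (5 and 21) and 3 with neither (2 and 6). An observed to expected CpG ratio over 0.6 was found in 82.1%, 51.1%, 40.3% and 7.91% of these groups in the same order. The RNA level was read for the 13931 genes with a RefSeq start within 100 bases of the gene start and for no others. Among those at 100 CPM or more, 986 of 1082 with such a CpG-rich promoter (91.1%) had both summits. Of those with a CpG-poor promoter, 105 of 205 (51.2%) did. At 10 to 100 CPM the shares were 82.6% with CpG-rich and 52.8% with CpG-poor promoters. Levels can still differ within these ranges.

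Short motifs were counted in the same windows on both strands, as letters and not as binding sites. The GC box GGGCGGGG of SP and KLF factors was present in 36.5% of promoters with both, 26.6% with ATAC only, 20.8% with H3K27ac only and 5.46% with neither, against 17.6% of all promoters. The ETS letters CCGGAAG were present in 21.3%, 8.11%, 7.86% and 2.73%, in the same order, against 8.86% of all. TATAAA ran the other way, at 5.66% with both, 8.03% with ATAC only, 12.3% with H3K27ac only and 19.2% with neither, against 13.6% of all. The AP-1 letters TGANTCA were present in 4.30%, 6.13%, 7.23% and 10.1%, against 7.81% of all. The GC box and ETS letters hold CpG and TATAAA does not, and base composition moved with the groups: median GC content was 62.7%, 59.0%, 55.2% and 47.7%. Its part in the motif counts was not tested.

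The keratins of the epidermis, among the most abundant RNAs of these cells, fell into all 4 groups. Krt1 (ENSMUSG00000046834, chr15:101845428-101850786, minus strand), the type II keratin of suprabasal cells, had 36937, 37858 and 30612 CPM in the Het libraries. Its start lay 43 bp from an ATAC summit and 28156 bp from the nearest H3K27ac summit, so it stood with ATAC only. Krt10 (ENSMUSG00000019761, chr11:99385254-99389364, minus strand), its partner, had 26915, 29015 and 23703 CPM, yet its start lay 2825 bp from the nearest ATAC summit and 112495 bp from the nearest H3K27ac summit. The pair thus combined very high RNA with no H3K27ac peak called near the start.

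The basal pair differed from this. Krt5 (ENSMUSG00000061527, chr15:101707070-101712891, minus strand) had 14097, 13802 and 11693 CPM, an H3K27ac summit 90 bp from its start and its nearest ATAC summit 4645 bp away. Krt14, its partner, had 7450, 6494 and 6155 CPM and both summits, at 112 bp for ATAC and 118 bp for H3K27ac. At the RefSeq start of Krt14, which lies 1518 bp from the outermost annotated start, there was an H3K27ac summit at 11 bp and the nearest ATAC summit was 1630 bp away. Krt15, another basal keratin, stood with ATAC only at 2916, 2610 and 2619 CPM, and Krt17, a keratin of appendages and stressed epidermis, with H3K27ac only at 1296, 1233 and 1118 CPM.

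Other genes of highest level per kb showed where the groups can rest on annotation. Stfa3, a cystatin-family protease inhibitor, had both summits and 2602, 3024 and 3345 CPM, and Stfa1, of the same family, had H3K27ac only and 685, 373 and 911 CPM; reads that fit several of these near-identical genes were not counted, so both levels are uncertain. Lgals7, which encodes the epithelial lectin galectin 7, had both and 3852, 4649 and 4223 CPM. Krtdap had both and 1307, 1702 and 1600 CPM, and Dmkn, with ATAC only, had 1994, 2176 and 2003 CPM. Another RefSeq start of Dmkn, 12649 bp from the outermost start, had both summits, at 187 bp for ATAC and 174 bp for H3K27ac. Cox6b1, with H3K27ac only, had 154, 161 and 179 CPM. Ptma, which encodes the chromatin protein prothymosin alpha, had ATAC only and 2760, 2979 and 2936 CPM, with an H3K27ac summit 1242 bp away, just beyond the window. Ywhaz, a 14-3-3 protein, had H3K27ac only and 699, 721 and 697 CPM, with an ATAC summit at 1961 bp.

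Eef1a1, the translation elongation factor, had 9090, 9777 and 11063 CPM and neither summit at its outermost start, but its RefSeq start, 7427 bp away, had both. The same was true of Rps2, Ctnnb1 and H3f3b, and Rpl13a, with ATAC only, had both at its RefSeq start. Krt1 had no matching RefSeq start in the table used, while Krt10 and Lor, which encodes the envelope protein loricrin, had neither at their RefSeq starts too. Across the 17525 genes with a RefSeq start, 16376 (93.4%) kept their group. Also among the highest per kb were mt-Cytb, mt-Nd1, mt-Rnr1 and mt-Co1 of the mitochondrial genome, which has no histones and holds 4 ATAC and 4 H3K27ac peaks in these lists, and Gm23935, Gm26924, Gm10736 and Gm10076, predicted genes whose levels are uncertain where near-identical copies exist.

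The 16 to 35 genes of each epithelial list, and the 79 cytosolic ribosomal proteins, are described by counts. The lists carry no test. For reading, 81.2% of the 2096 genes at 100 CPM or more had both summits, 207 (9.88%) had ATAC only, 34 (1.62%) H3K27ac only and 153 (7.30%) neither. Of the ribosomal proteins, 76 of 79 had both; Rpl13a had ATAC only, and Rps2 and Rps10 had neither. At RefSeq starts all 3 had both, as did each of the 58 ribosomal proteins with an entry. Rplp1 was the highest per kb, at 1234, 1424 and 1411 CPM. Of 24 cell cycle genes 19 had both, among them Pcna, the replication clamp, at 272, 280 and 308 CPM, and 5 had ATAC only (Rrm2, Plk1, Bub1, Cenpf and Tyms).

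The suprabasal and cornified envelope genes had both summits least often among the epithelial lists apart from the hair genes. All but Lce3b of the 30 reached 1 CPM in each library, yet 7 had both, 5 ATAC only and 18 neither. Those with both were Krtdap, Asprv1, Dsg1a, Casp14, Evpl, Klk5 and Sprr1a, and Krtdap was the highest of them per kb. The 5 with ATAC only were Krt1, Dsc1, Ppl, Tgm3 and Tgm1. Lor, among those with neither, had 1182, 958 and 657 CPM with its nearest ATAC summit at 2392 bp and its nearest H3K27ac summit at 49042 bp. Flg, which encodes filaggrin, the keratin-bundling protein of the outer layers, had 261, 164 and 222 CPM and summits at 6794 and 83984 bp. Of the 30 genes, 7 had both with a window of 2 kb as well, and 6 with 500 bp. At RefSeq starts, 6 of the 24 with an entry had both. The sort selected cells positive for integrin A6, a basal surface marker, in the ATAC, H3K27ac and RNA samples alike, and the share of suprabasal cells in each is not given; in bulk samples, fewer cells of a type and less signal per cell cannot be told apart.

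**Figure D4:**
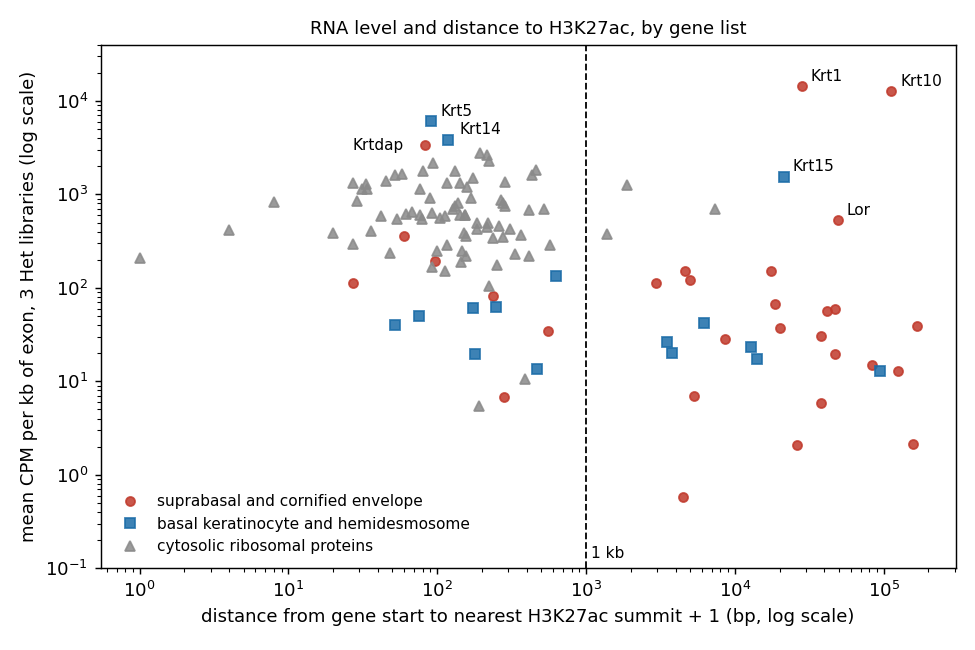
Mean CPM per kb of exon over the 3 Het libraries (log scale) against the distance from the gene start to the nearest H3K27ac summit plus 1 bp (log scale), for suprabasal and cornified envelope genes (red circles), basal keratinocyte and hemidesmosome genes (blue squares) and cytosolic ribosomal proteins (grey triangles). The dashed line marks 1 kb. Krt1 and Krt10 stand at the top right, 28156 and 112495 bp from an H3K27ac summit, while 76 of the 79 ribosomal proteins lie left of the line; Lce3b, with no counts, is not drawn.

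Genes of the basal layer and its anchorage were divided more evenly. Of 16 such genes, all at 1 CPM or more, 7 had both (Krt14, Itgb1, Lamb3 and Itgb4 among them), 4 had ATAC only (Krt15, Lama3, Plec and Dst), 2 had H3K27ac only (Krt5 and Col17a1) and 3 had neither (Itga6, Col7a1 and Itga3). Itga6, which encodes the integrin used for the sort, had 410, 368 and 352 CPM, with its nearest ATAC summit 13564 bp and its nearest H3K27ac summit 6200 bp from the outermost start. Col17a1, a collagen of hemidesmosomes, had 940, 715 and 647 CPM.

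All 20 desmosome and tight junction genes had an ATAC summit within 1 kb of their start. Of these, 15 (75%) had both and 5 had ATAC only (Cldn1, Ocln, Cgn, Dsc2 and Pkp2). For reading, 72.4% of all genes at 10 to 100 CPM had both and 16.7% ATAC only. At 100 to 1000 CPM the shares were 81.4% and 9.90%, so the list stood near the shares of all genes at such levels. With a window of 500 bp, 10 of the 20 had both. Perp, a desmosomal membrane protein and the highest per kb, had 2644, 3068 and 2776 CPM. Dsp, which encodes desmoplakin, the plaque protein that links desmosomes to keratin, had 5877, 5999 and 4914 CPM, and Pkp1, which encodes plakophilin 1, had 2759, 2876 and 2315 CPM. All 3 had both.

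Genes of barrier lipids and sphingolipids, which supply the ceramides of the outer barrier, had both summits in 16 of 30 cases. Another 8 had ATAC only, 5 had neither, and 1 had H3K27ac only. Sptssa, a small subunit of serine palmitoyltransferase and the highest of the list per kb, had both and 246, 300 and 350 CPM. Elovl4, which elongates very long chain fatty acids, had ATAC only and 312, 363 and 336 CPM. The 5 with neither were Cyp4f39, Alox12b, Asah2, Degs2 and Sgms2. At RefSeq starts, Cyp4f39 had ATAC only and 4 of the 6 starts of Sgms2 had both, while the other 3 genes had neither. Asah2, a neutral ceramidase at 36.5, 40.0 and 35.0 CPM, was nonetheless the nearest start to 6 open and acetylated sites farther than 1 kb away.

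Transcription regulators of the epidermis had both summits in 18 of 35 cases, ATAC only in 11 and neither in 6. Klf4, a zinc-finger regulator of late differentiation, had both and 429, 468 and 357 CPM. Cebpa had both and 276, 331 and 284 CPM. Fos, an immediate early component of AP-1, had both and 341, 290 and 158 CPM, and Jun 369, 319 and 185 CPM, so both were lowest in Het library 3. The 6 with neither were Trp63, Jund, Tfap2a, Dlx3, Runx1 and Prdm1. Jund and Prdm1 lay close to the edge of the window, with ATAC summits at 1403 and 1149 bp and H3K27ac summits at 1107 and 1024 bp. Of the 35 genes, 21 had both with a window of 2 kb or with any base of a peak within 1 kb, and 13 with 500 bp. At RefSeq starts, Runx1 had both at 1 of its 2 starts and Prdm1 had ATAC only, while Jund and Tfap2a had neither. Trp63, which encodes the master regulator p63, had 530, 497 and 460 CPM; its outermost start, 59140 bp from the nearest ATAC summit, is the one annotated for the long form, and the start of the short form that prevails in epidermis was not examined here.

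Hair placode and follicle genes stood most often with ATAC only. Of 18 genes, 9 had ATAC only, and 3 each had both (Cxcl14, Ptch1 and Sox9), H3K27ac only (Krt17, Wnt10b and Wnt10a) and neither (Gli1, Shh and Dkk4). Shh, the hedgehog ligand of the placode, had 38.9, 32.4 and 27.3 CPM, and its receptor Ptch1 had 385, 266 and 224 CPM. Lhx2, a placode transcription factor with ATAC only, had 77.6, 41.7 and 28.8 CPM. With a window of 2 kb, 6 of the 18 had both. Of 38 Hox genes, which set body position, 23 were at 1 CPM or more, 2 had both, Hoxa4 among them, Hoxb6 had H3K27ac only, 7 had ATAC only and 28 neither.

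**Figure D5:**
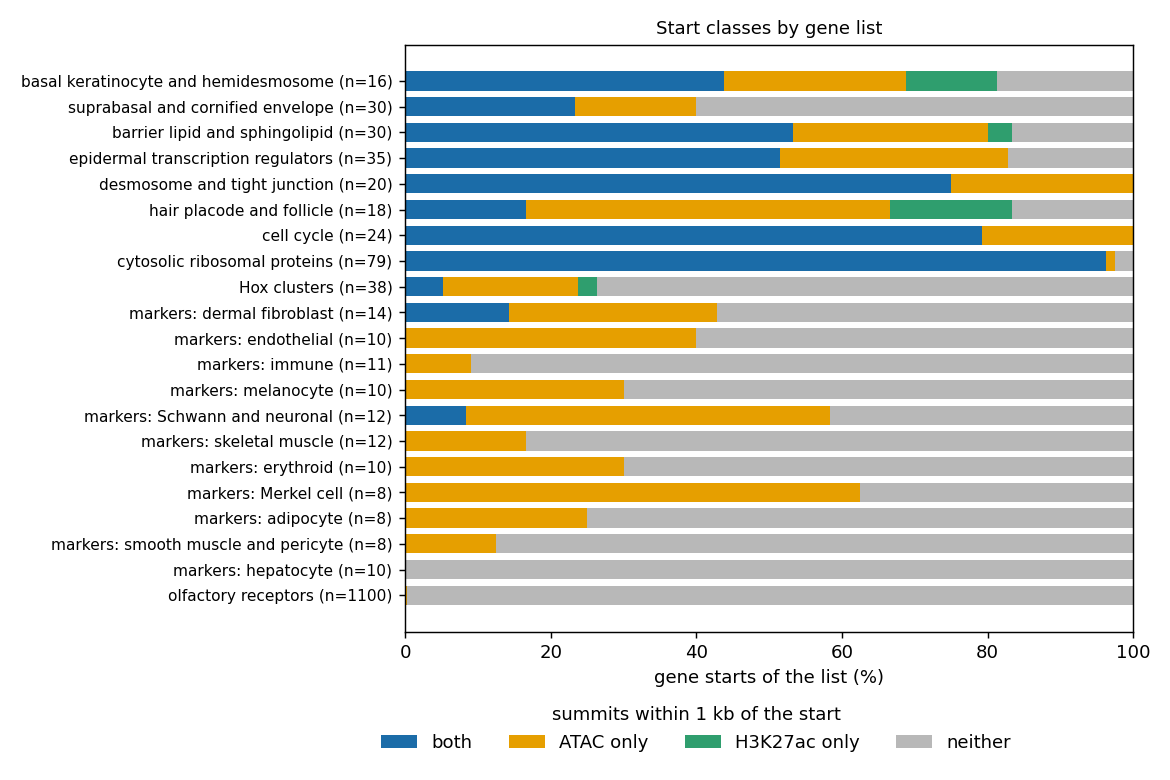
Percentage of gene starts with both, ATAC only, H3K27ac only or neither for each gene list, with the number of genes matched. Both summits were found at 76 of 79 cytosolic ribosomal proteins, 7 of 30 suprabasal genes and 3 of 18 hair genes, and 1097 of 1100 olfactory receptor genes have neither.

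Markers of other cell types are given by counts, beside the shares of all genes with both summits. These shares were 1.99 to 13.5% of genes under 1 CPM on average, depending on the level, and 30.8% at 1 to 10 CPM. At 10 to 100 CPM the share was 72.4%, and at 100 to 1000 CPM it was 81.4%. None of 10 endothelial, 11 immune, 10 melanocyte, 12 skeletal muscle, 10 erythroid, 8 Merkel cell, 8 adipocyte, 8 smooth muscle and 10 hepatocyte markers had both. All 10 melanocyte markers exceeded 1 CPM, led per kb by Dct, which encodes a pigment enzyme, at 196, 181 and 185 CPM, and 7 of them had neither summit. Dct was among these 7, but with an ATAC summit at 1013 bp and an H3K27ac summit at 1097 bp, just beyond the window. With a window of 2 kb, 2 melanocyte markers, 1 erythroid and 1 hepatocyte marker had both. With any base of a peak within 1 kb, 2 melanocyte markers and 1 erythroid marker did. Mean levels of the melanocyte markers ran from 8.80 to 187 CPM with a median of 25.5 CPM, so the shares for higher levels are the ones to read them against. Of 14 fibroblast markers, Dcn (373, 426 and 535 CPM) and Fn1 (261, 166 and 105 CPM) had both, and Postn (1095, 1070 and 1295 CPM) had ATAC only; Twist2 was at 0. Of 12 Schwann and neuronal markers, 1 had both and 6 had ATAC only. The CD45 gene Ptprc, on whose product the sort was negative, had 8.44, 4.58 and 11.0 CPM with neither summit, and summed immune markers ranged over 40.8 to 72.5 CPM. Summed erythroid markers ranged from 16.2 CPM in Het library 1 to 1104 CPM in Het library 3. Olfactory receptor genes, which skin does not use, had neither summit at 1097 of 1100 starts, and 1075 had no counts.

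The start groups were also counted in 3 epidermal gene clusters, chosen after values had been seen. For reading, of all 12255 genes at 1 CPM or more, 64.2% had both, 19.5% ATAC only, 1.68% H3K27ac only and 14.5% neither. In the epidermal differentiation complex, from S100a1 to S100a10 (chr3:90511034-93564643), there were 75 ATAC and 33 H3K27ac peaks. Of its 85 starts 37 were at 1 CPM or more, and of these 5 had both, 8 ATAC only and 24 neither. The type I keratin cluster (chr11:99232761-100269871) held 16 ATAC and 16 H3K27ac peaks, and of 12 starts at 1 CPM or more 1 had both and 7 neither. The type II cluster (chr15:101349571-102032026) held 19 ATAC and 14 H3K27ac peaks, and of 15 such starts 1 had both and 12 neither. In the type I and type II clusters 5 ATAC peaks each overlapped H3K27ac.

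Open and acetylated sites away from starts were counted by their nearest start. Of the 5163 such ATAC peaks, 3 lay on sequences with no gene start, and the other 5160 were nearest to 3945 starts. Among starts that themselves had both summits, median RNA was 32.3 CPM with 0 such distal sites (7948 genes), 46.0 CPM with 1 (948), 52.1 CPM with 2 (220) and 95.6 CPM with 3 or more (82). Among starts with ATAC only the medians were 0.775, 12.8, 21.7 and 45.2 CPM, over 4438, 424, 93 and 33 genes. Among starts with H3K27ac only they were 3.95, 28.7, 10.3 and 32.9 CPM, over 202, 107, 16 and 5 genes, with no steady order. Among starts with neither they stayed at 0.0247 CPM or less, over 22646, 1609, 298 and 110 genes. The share of those genes at 1 CPM or more was nonetheless 5.75%, 22.8%, 26.5% and 29.1%, in the same order. The nearest start need not be the target of a site, and levels here are not scaled to length. The most at any start was 8, at AC149090.1 on a scaffold outside the chromosomes (136, 95.3 and 131 CPM). Starts with 6 distal sites included Tiam1, a Rac activator with ATAC only at its start and 399, 423 and 337 CPM, Lmo7, which encodes a junction-associated protein, at 135, 131 and 139 CPM, and Tgfbr2, the type II TGF-beta receptor, at 39.9, 33.9 and 32.0 CPM. Pkp1 had 5.

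Some starts with both summits had little RNA. There were 1187 with both and under 1 CPM in every Het library, of which RefSeq lists 252 as protein coding. Of the 1187, 664 (55.9%) lay within 1 kb of another start whose gene had 10 CPM or more. The corresponding share was 4.57% of 2341 low starts with ATAC only, 22.5% of 120 with H3K27ac only and 0.308% of 22407 with neither. The 6 of highest H3K27ac fold were Gm10722, Rnu2-10, Gm6787, Gm24497 and 2 entries named E030030I06Rik, at 0.172 CPM or less in each library, and none had a start at 10 CPM or more within 1 kb. Rnu2-10 and Gm24497 are listed as small nuclear RNA genes, and the 2 E030030I06Rik entries overlap on the same strand. Reads that fit several genes or places were not counted, so these levels are uncertain. For scale, 3 counts equal 0.0646 to 0.0858 CPM in the Het libraries.

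The start groups were then used to compare the genotypes. Klf5 itself had 201, 187 and 172 CPM in the libraries labelled Klf5-/-, against 180, 189 and 160 CPM in the Het libraries, so its whole-gene level was not lower. No source used here says which part of Klf5 was deleted, and such counts do not check the labels. Its start had both summits, at 152 bp for ATAC and 148 bp for H3K27ac. Genes with both took 73.0%, 73.0% and 72.1% of counts in the libraries labelled Klf5-/-, against 70.6%, 70.8% and 71.9% in the Het libraries. Genes with ATAC only took 12.1%, 12.1% and 12.7%, against 14.3%, 14.1% and 13.0%. In each case the genotypes did not overlap.

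These differences were 1.59 percentage points for both and -1.51 for ATAC only, libraries labelled Klf5-/- minus Het, each with an exact two-sided permutation p = 0.1 (adjusted over the 4 groups 0.2), and 0.1 is the smallest p that 3 against 3 libraries allow. The difference was 0.304 points for H3K27ac only (exact p = 0.3, adjusted 0.4) and -0.378 for neither (exact p = 0.4, adjusted 0.4). None passed 0.05. Krt1 alone held 1.84%, 1.61% and 2.55% of counts in the libraries labelled Klf5-/-, against 3.69%, 3.79% and 3.06% in the Het libraries, and Krt10 1.67%, 1.44% and 2.12%, against 2.69%, 2.90% and 2.37%. Without the 10 genes of most counts, Krt1 and Krt10 among them, the differences shrank to 0.177 points for both (exact permutation p = 0.7) and -0.232 for ATAC only (exact p = 0.4), and that for neither turned to 0.0305 points. The peak lists come from samples labelled wild type, so nothing here measures chromatin in the Klf5-/- state.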

How the data were processed

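RNA was measured as raw read counts per gene, which the authors deposited for each library; STAR 2.6.0b and HTSeq on mm10 (GRCm38) are named in the submitters' processing notes, with no strand setting. For the chromatin samples the same notes name MACS2 for peaks, with Bowtie2 2.2.3 and Bowtie 1.0.1 as aligners. Every peak carries the authors' deposited fold enrichment (a ratio over background), −log10 p and −log10 q, and these served to order or filter peaks inside their own list. Each list belongs to 1 sample, and its peak names hold the word MERGE with no explanation. Control, threshold and depth of the chromatin libraries: not given in the sources used here.

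Counts on genes totalled 34486898 to 38597737 in the libraries labelled Klf5-/- and 34965243 to 46445546 in the Het libraries. Reads assigned to no gene, to more than 1 gene or to several places in the genome (13.5 to 16.9% in total) were left out. CPM were computed on these totals, and CPM per kb with the exon length in the files. Python 3.11.15 with pandas 2.3.3, numpy 2.4.6 and scipy 1.17.1 was used, and the overlap and class counts were tested on simulated data. No test was run across genes. The share of counts in each start group was compared between genotypes by exact permutation over libraries, two-sided, with Benjamini-Hochberg adjustment over 4 groups. The labels do not tie libraries to separate animals, so a p-value measures only how these libraries vary, which can be technical.

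Alternatives were other windows (500 bp and 2 kb), any base of a peak in place of its summit, an overlap of 50%, a −log10 q of at least 5, a minimum of 10 counts, edgeR 4.0.16 (R 4.3.3) TMM scaling, chromosomes 1 to 19 and X alone, leaving out each library and the replicate number as a block. RefSeq starts and RefSeq protein-coding genes were added after seeing the data. RefSeq promoters (GRCm38.p6) were matched to 17514 genes. Members, lists and alternatives were chosen with earlier results of these data known. Genes named in the text were, in each start group, the 6 of highest CPM per kb; the 6 with both summits, under 1 CPM and of highest H3K27ac fold; list members by level per kb or by standing in a group with 5 or fewer of their list; and the extreme peaks. Other genes were named after their values were seen. A few genes that this rule covers are counted in their lists but not reported here by name.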

Additional observations from a re-analysis of the deposited data

How the results depend on the processing

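Each assay of chromatin had 1 sample with no deposited depth, so a missing peak is a peak not called, and starts are gene-level outermost bases. Of 146 recomputed values, 94 stayed within their spread or on their side of the test, 51 moved beyond the spread and 1 changed sign, and the cause of these shifts was not tested. With an overlap of at least 50% of the peak, 23.9% of ATAC and 65.4% of H3K27ac peaks overlapped, and with a −log10 q of at least 5, 80.5% of H3K27ac peaks did.

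With a 500 bp window the medians were 35.8 CPM (both), 2.06 (ATAC only) and 19.8 (H3K27ac only), and 87.7%, 53.9%, 74.1% and, with neither, 8.87% of genes reached 1 CPM. With 2 kb they were 32.0, 0.556 and 0.444 CPM, and 82.8%, 42.8%, 46.0% and 6.38%. With any base of a peak within 1 kb, ATAC only had 0.874 and H3K27ac only 4.55 CPM, and 84.4%, 46.4%, 54.3% and 6.81% reached 1 CPM. With a −log10 q of at least 5 the medians were 36.9, 2.76 and 15.2 CPM, and 56.6% (ATAC only) and 8.32% (neither) reached 1 CPM. Requiring at least 10 counts gave 38.9, 4.93, 21.4 and, with neither, 0.606 CPM, and 92.2%, 67.8%, 83.4% and 36.8%. RefSeq starts gave 39.0, 2.14 and 23.1 CPM, and 92.0%, 55.0%, 79.6% and 9.95%. RefSeq protein-coding genes gave 42.8, 3.27 and 28.3 CPM, and 95.9%, 60.1%, 91.2% and 15.9%. Starts with both stood highest in the median under each of these settings. Leaving out each Het library gave 7.38 to 7.66% at 1 CPM or more with neither.

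In the comparison of genotypes, the difference for neither turned to 0.0305 points (exact permutation p = 0.7) without the 10 genes of most counts. Same-numbered libraries did not deviate together, with correlations of 0.09, -0.13 and 0.33, so the numbers were not taken as pairs. With the replicate number as a block the differences stayed at 1.59 points for both (exact p = 0.25, the smallest that 3 pairs allow), -1.51 for ATAC only (exact p = 0.25), 0.304 for H3K27ac only (exact p = 0.25) and -0.378 for neither (exact p = 0.5).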
